A study of Mus musculus with 4 samples.

Results

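The cells described here are B cells with high transcript levels of the cell division machinery, from a mouse experiment on B cells cultured with Toll-like receptor ligands. They were defined by counts: a cell of library 7 or 8 was taken when the unique molecular identifiers (UMIs, each standing for 1 captured transcript) of Mki67, Top2a, Birc5, Cenpf, Ube2c, Cdk1, Hmmr, and Tpx2 summed to at least 10 and those of Jchain, a secretory plasma cell gene, stayed under 5. The rule took 558 of the 9624 passing cells of these libraries (5.80%, exact Clopper-Pearson 95% interval 5.34% to 6.28%), and the whole series held 18534 passing cells. Library 7 gave 299 of 5621 cells (5.32%, 4.75% to 5.94%) and library 8 gave 259 of 4003 (6.47%, 5.73% to 7.28%). They are called mitotic cells below, and the remaining 9066 passing cells of libraries 7 and 8 are called other cells.

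The study isolated B cells by negative selection from the spleens of wild-type C57BL/6 mice, 6 to 12 weeks old per its methods, and cultured them for 3 days with the TLR9 agonist CpG B ODN 1668. Bregs-CpG, labeled CpGB, received no more than this, and Bregs-TLR, labeled TLRB, also received the TLR4 agonist LPS with PMA and ionomycin for the final 5 hours. Each condition had 2 samples, and no source used here says whether they came from separate mice. The barcodes of the cells end in a library number from 5 to 8 but name no sample. No label thus says which libraries hold Bregs-CpG and which hold Bregs-TLR. The paper annotated its IL-10-positive clusters as Bregs-TLR, with some Bregs-CpG cells in 1 of them. Il10 was at 261 and 257 CPM in other cells of libraries 7 and 8, against 14.1 and 11.1 CPM in those of libraries 5 and 6. No condition was assigned to a library from these values. The matrix was taken as 1 pooled sample, the values of the libraries stand side by side, and no P value was computed.

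A dividing lymphocyte copies its DNA in S phase, with the MCM helicase, ribonucleotide reductase, and new histones, and then in G2 builds up cyclins, mitotic kinases, condensin, and spindle proteins that drive chromosome segregation. The anaphase-promoting complex destroys many of these proteins at the end of mitosis. CpG acts through TLR9 as a strong mitogen of B cells, and IL-10 is the cytokine by which regulatory B cells are most often recognized.

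The name mitotic was checked against replication genes. An S index, the summed counts per 1000000 UMIs (CPM) of Mcm2 to Mcm7, Tipin, and Uhrf1, reached 1000 CPM in 283 of the 558 mitotic cells (50.7%), in 160 of 299 (53.5%) of library 7 and 123 of 259 (47.5%) of library 8. In the other cells this share was 18.5% in library 7 and 16.9% in library 8. At this limit the rule took cells with high replication transcripts and cells with low ones in nearly equal number. The name thus covers S phase and G2 as well as mitosis itself. The balance depended on the summed count of the rule genes. The index reached 1000 CPM in 80.8% of mitotic cells with 10 to 19 UMIs, 54.4% with 20 to 39, and 18.5% with 40 or more. The name Il10-rich held against libraries 5 and 6 but not within libraries 7 and 8. Il10 was at 196 CPM in the mitotic cells of library 7 and 218 CPM in those of library 8, against 261 and 257 CPM in the other cells of the same libraries and 14.1 and 11.1 CPM in the other cells of libraries 5 and 6.

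The mitotic cells held 5437978 UMIs in library 7 and 4622881 in library 8, and the other cells 58200180 and 41049637. The median mitotic cell had 16648 UMIs in library 7 and 16325 in library 8, against 10168.5 and 9868.5 in the other cells, and 3511 and 3377 detected genes against 2575 and 2476.5. The median mitochondrial share of UMIs was 4.95% and 5.01% in mitotic cells and 4.57% and 4.61% in other cells. Mitotic cells were thus deeper, and a rule on a number of UMIs takes deeper cells more easily. Levels are therefore given as shares of all UMIs, in CPM. Intervals are 95% intervals (exact Poisson for a level, exact conditional for a ratio) and cover counting error only. PCR duplicates were collapsed through the UMIs by the authors.

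The summed count of the 8 genes that chose the cells ran from 10 to 134 UMIs with a median of 28. It was 0 in 6399 of the 9066 other cells (70.6%). All 8 genes were detected in 205 mitotic cells, and the median cell showed 7 of them. At the limit, the 41 mitotic cells with 10 or 11 UMIs had a median S index of 1725 CPM and a median of 3034 CPM for 69 G2/M genes, and the 64 cells just outside with 8 or 9 UMIs had 1719 and 2813 CPM. Il10 was at 161 CPM (132 to 194) just inside and 223 CPM (197 to 252) just outside. As the rule fixes, its genes were higher in mitotic cells, from Top2a, the topoisomerase that untangles chromatids, at 586 and 570 CPM against 34.1 and 31.4 CPM in other cells, to Ube2c, the ubiquitin-conjugating enzyme of the anaphase-promoting complex, at 242 and 305 CPM against 0.945 and 0.804 CPM. Mki67, the proliferation marker that coats mitotic chromosomes, was at 309 and 289 CPM against 2.99 and 2.39 CPM, and Cdk1, the mitotic kinase, at 192 and 186 CPM against 6.77 and 6.04 CPM.

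A gene was called higher or lower when it reached 20 CPM in the group where it was higher and differed at least 2-fold in the same direction in both libraries. Of 5052 genes that reached 20 CPM in either group, 227 were called higher in mitotic cells (4.49%) and 5 lower (0.099%). The 8 rule genes are among the 227, which leaves 219. The cells were chosen by expression, so all these ratios are descriptions of the choice and of what goes with it. The cell cycle lists held 114 of the 227 genes, 121 were in any of the gene lists, and 106 were in none. The median log2 ratio of all 5052 genes was -0.02. Of the 227 genes, 166 reached 20 CPM in mitotic cells and not in other cells, so that the limit on CPM nearly fixed the direction of their calls. Counts of called genes in the lists carry the same limit, and the values of the genes are the description.

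**Figure D1:**
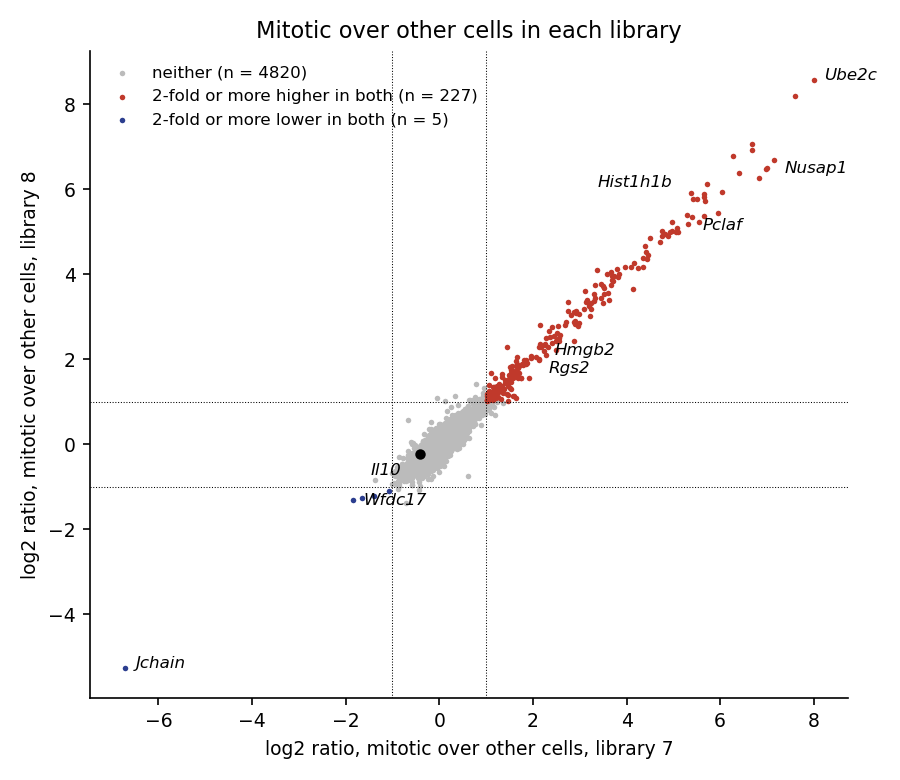
Log2 ratio of CPM in mitotic over other cells in library 7 (horizontal axis) and library 8 (vertical axis), 1 point for each of the 5052 genes that reached 20 CPM in either group. Dotted lines mark a 2-fold ratio; the 227 genes called higher lie along the diagonal up to Ube2c, a rule gene, the 5 called lower include Jchain, on which the rule set a limit, and Il10 (black point) lies inside the lines at -0.41 and -0.23.

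Genes of G2 and mitosis made up the largest called group. Of 69 G2/M genes outside the rule, 56 reached 20 CPM and 49 of these were called higher (87.5%, against 4.49% over all genes), 44 of them under 20 CPM in other cells. The median log2 ratio over the 69 was 3.69 (3.63 in library 7 and 3.74 in library 8). Hmgb2, a chromatin protein of dividing cells and the most abundant of them, was at 1695 and 1555 CPM against 359 and 340 CPM in other cells, a log2 ratio of 2.22 (2.19 to 2.24). Nusap1, which binds spindle microtubules near chromatin, was at 73.6 and 75.5 CPM against 0.515 and 0.731 CPM. Both libraries gave nearly the same levels for each of these genes. Ccna2 encodes cyclin A2, the cyclin of S phase and G2. It was at 88.6 and 88.3 CPM against 0.859 and 0.658 CPM, a log2 ratio of 6.83 (6.50 to 7.19). Ccnb1, encoding cyclin B1, the partner of CDK1 at mitotic entry, was at 75.4 and 77.4 CPM against 4.21 and 4.04 CPM. Plk1, a kinase that acts from mitotic entry to cytokinesis, was at 41.9 and 38.5 CPM against 0.979 and 0.706 CPM. Cdc20, the activator of the anaphase-promoting complex, was at 53.1 and 62.1 CPM against 4.19 and 3.73 CPM. The 7 measured members not called were Lbr, Ckap5, Anp32e, Bub3, Zwint, Pttg1, and Rangap1. Pttg1 encodes securin, which holds separase inactive until anaphase, and its level was the same in both groups (22.4 and 22.3 CPM over the 2 libraries, log2 ratio 0.00, -0.20 to 0.20).

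The machinery for attaching and separating chromosomes showed the same direction. For the spindle checkpoint and kinetochore, 12 of 15 measured genes were called higher (80%, against 4.49% over all genes), each of them under 20 CPM in other cells, and none lower. The median log2 ratio over the 18 genes of the list was 3.56. Cenpa, the histone variant that marks centromeres, was at 177 and 185 CPM against 15.6 and 14.0 CPM. The kinetochore motor Cenpe was at 109 and 110 CPM against 3.20 and 3.46 CPM, and the checkpoint kinase Bub1 at 38.1 and 38.7 CPM against 0.842 and 0.706 CPM. Of condensin and cohesin genes, 9 of 15 were called higher (60%), 6 of them under 20 CPM in other cells. The condensin core genes Smc4 (319 and 343 CPM against 62.5 and 53.7 CPM) and Smc2 (292 and 288 CPM against 51.3 and 47.0 CPM) were among them. The cohesin core genes Smc1a and Smc3, which hold sister chromatids together, had log2 ratios of 0.62 (0.56 to 0.69) and 0.73 (0.66 to 0.79) and were not called. Of tubulin and spindle genes, 11 of 18 were called higher (61.1%), 5 of them under 20 CPM in other cells. Tubb5, a beta-tubulin, was at 957 and 975 CPM against 282 and 265 CPM, and Stmn1, which destabilizes microtubules, at 461 and 453 CPM against 58.3 and 54.3 CPM. Kif5b, a motor of vesicle transport, was at log2 ratio 0.05 (-0.02 to 0.11).

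Promoters of many G2/M genes carry 2 short elements, the CHR and the CCAAT box, through which the DREAM complex, B-MYB, FOXM1, and NF-Y act. Windows of 300 bases, from 250 before to 50 after a transcription start, were taken from RefSeq (GRCm38). The letters TTTGAA (CHR) and CCAAT were searched on both strands, and the letters of the motifs do not overlap in the sequences printed here. Of 32851 windows in the table, 17.9% held TTTGAA, 37.4% held CCAAT, and 6.95% held both. For the tested genes, from which the called ones come, these shares were 12.8%, 37.8%, and 5.49%. Of 45 windows for 42 of the 49 called G2/M genes, 66.7% held TTTGAA, 73.3% CCAAT, and 55.6% both. Of 27 windows for 23 of the 31 called S phase genes, 14.8% held TTTGAA, 66.7% CCAAT, and 7.41% both. Of 196 windows for 170 of all 227 called genes, 37.2% held TTTGAA, 59.2% CCAAT, and 27.6% both. Beside the tested genes, TTTGAA was more frequent in windows of called G2/M genes and near the same share in those of called S phase genes, while CCAAT was more frequent in both. These are descriptions without a test. A match of letters is no measured binding site. The sequences are the 160 bases before the start of the 3 called G2/M genes of highest CPM that held both elements there, had a single window, and overlapped the annotated gene by no more than 30 bases. Sequences run 5' to 3' on the strand of the gene with the motif letters of either strand in capitals. The Hmgb2 stretch is chr8:57511683-57511842 (plus strand), that of Kif11, a motor that pushes spindle poles apart, chr19:37376222-37376381 (plus strand), and that of Cdc20 chr4:118437344-118437503 (minus strand), all on GRCm38.
Hmgb2: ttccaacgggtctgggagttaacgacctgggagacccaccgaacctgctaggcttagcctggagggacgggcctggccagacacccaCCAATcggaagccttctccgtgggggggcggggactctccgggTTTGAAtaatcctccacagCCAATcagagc
Kif11: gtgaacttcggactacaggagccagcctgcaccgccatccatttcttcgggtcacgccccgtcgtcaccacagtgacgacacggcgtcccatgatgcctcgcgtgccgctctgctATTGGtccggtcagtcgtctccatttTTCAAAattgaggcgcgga
Cdc20: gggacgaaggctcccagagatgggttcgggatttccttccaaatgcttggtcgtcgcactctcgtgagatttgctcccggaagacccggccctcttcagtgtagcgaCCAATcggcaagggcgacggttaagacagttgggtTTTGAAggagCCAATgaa
The first letter of the element nearest to the start (TTTGAA or TTCAAA) lay 30 bases before the start in Hmgb2, 19 in Kif11, and 18 in Cdc20, and a CCAAT box lay within the 45 bases before the start in each. In mitotic cells the 3 genes were at 1631, 87.7, and 57.3 CPM, with log2 ratios of 2.22, 4.36, and 3.84.

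S phase genes were raised too, by less. Of 49 measured, 31 were called higher (63.3%, against 4.49% over all genes), 18 of them under 20 CPM in other cells, and none lower. The median log2 ratio was 1.42 (1.40 in library 7 and 1.30 in library 8). Rrm2, the cell cycle-regulated subunit of ribonucleotide reductase, was at 233 and 225 CPM against 10.9 and 9.77 CPM, and its partner Rrm1 at 140 and 149 CPM against 32.0 and 30.3 CPM. Brip1, a DNA repair helicase, was at 36.4 and 32.0 CPM against 2.54 and 2.00 CPM. E2f8, a repressor that E2F factors themselves induce, was at 30.5 and 25.3 CPM against 0.601 and 0.609 CPM. Mcm3, a subunit of the replicative helicase, was at 274 and 217 CPM against 132 and 120 CPM, past 2-fold in library 7 (log2 ratio 1.05) and under it in library 8 (0.86), and so not called. Ung, the uracil glycosylase used in repair and class switching, was at 52.2 and 45.6 CPM against 45.3 and 44.4 CPM. Against the 1621 other cells with a high S index alone, the median log2 ratio of the S phase genes was 0.12 and that of the G2/M genes 2.61. Of the 227 called genes, 136 were at least 2-fold higher than in those cells in both libraries. The 1621 cells were chosen by replication genes, so the low S phase median is partly set by the choice. They are also cells that the rule did not take. The G2/M median and the 136, counted with the rule genes, are thus partly set by the rule. Summed over the list, S phase genes were at 4527 CPM in these cells. They were at 6517 CPM in mitotic cells with a high S index and 2620 CPM in those with a low one.

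Within the mitotic cells, replication and G2/M transcripts went in opposite directions from cell to cell. Over the 558 cells, the Pearson correlation of log2 S index and log2 G2/M CPM was -0.52, given as a description, since both measures share the depth of a cell and the threshold of the rule. The 283 cells with a high S index had a median of 4665 CPM for the G2/M genes and 1725 CPM for the S index. The 275 with a low S index had 7083 and 534 CPM. Ube2c, one of the genes that chose the cells, was at 62.2 and 60.8 CPM in high S index cells of libraries 7 and 8 and at 437 and 507 CPM in low S index cells. Cdc20 was at 17.7 and 15.3 CPM against 91.7 and 101 CPM, and Cenpa at 63.9 and 66.1 CPM against 300 and 283 CPM. Both libraries put Cdc20 and Cenpa, which the rule did not use, far higher in the low S index cells. Bub1 (36.0 and 37.8 CPM against 40.3 and 39.5 CPM) and Spc24 (129 and 136 CPM against 121 and 114 CPM), both kinetochore genes, were near equal in the 2 states. Rrm2 was higher in the high S index cells, at 361 and 382 CPM against 94.7 and 95.9 CPM, and so was Ung, at 96.8 and 90.03 CPM against 3.84 and 9.07 CPM.

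**Figure D2:**
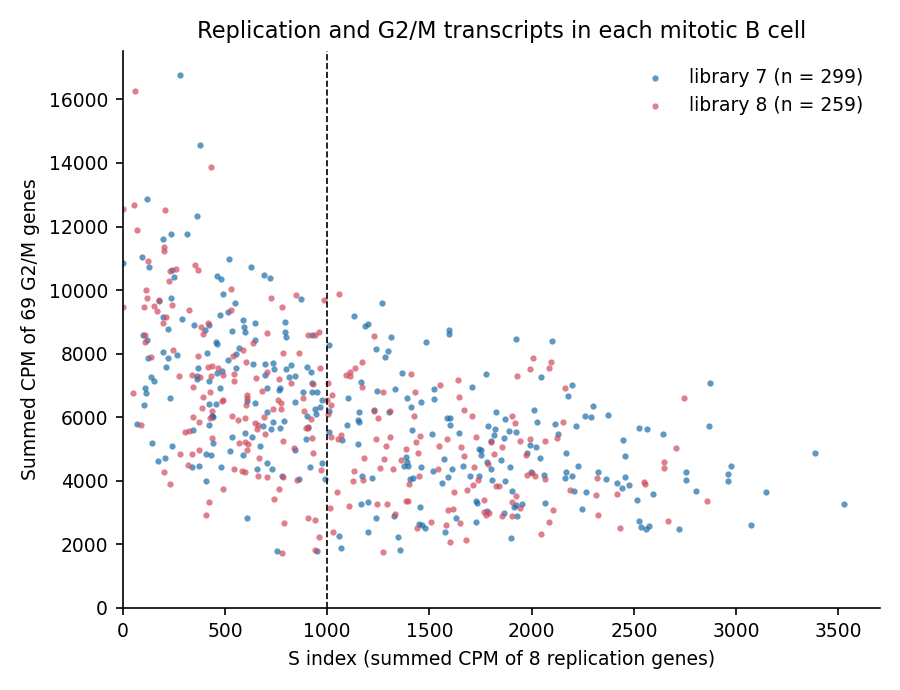
S index (horizontal axis, summed CPM of 8 replication genes) and summed CPM of 69 G2/M genes (vertical axis) in each of the 558 mitotic cells, colored by library. The dashed line marks 1000 CPM; the 275 cells left of it have a median of 7083 CPM for the G2/M genes and the 283 at or right of it 4665 CPM, with cells of both libraries on either side.

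Histone genes led the called genes outside all lists. They were counted by symbol after their values had been seen. Of 57 histone genes (symbols starting with Hist1h to Hist4h) with at least 10 UMIs, 13 reached 20 CPM. These 13 were called higher, against 4.49% over all genes. All of the 13 but Hist1h1e reached 20 CPM in mitotic cells alone, so the filter nearly fixed their calls. The summed histone level was 1974 and 1692 CPM in mitotic cells against 126 and 102 CPM in other cells. Hist1h1b, a linker histone, was at 623 and 662 CPM against 14.9 and 10.99 CPM. Hist1h3c, an H3 gene, was at 20.04 and 35.7 CPM against 0.103 and 0.122 CPM. Hist1h2ap, an H2A gene, differed between the libraries as well, at 516 and 129 CPM in mitotic cells and 10.2 and 2.27 CPM in other cells, with log2 ratios of 5.66 and 5.83. Histone genes of 1 type are close copies of each other, so reads may be split among them, and most histone messages lack the poly(A) tail that the assay primes on. The summed level was higher in low S index cells (2510 and 2027 CPM) than in high S index cells (1481 and 1285 CPM) in both libraries. Beside histones, the largest ratios outside the lists were those of Pbk, a mitotic kinase, Pclaf, the PCNA clamp-associated factor, Esco2, a cohesin acetyltransferase, Melk, Lockd, a noncoding RNA next to Cdkn1b, and Shcbp1. Pclaf was the most abundant of them, at 616 and 578 CPM against 14.7 and 14.2 CPM, and higher in high S index cells (919 and 923 CPM) than in low S index cells (287 and 293 CPM). Pbk was at 72.5 and 75.1 CPM against 1.37 and 1.07 CPM. H2afz, the histone variant H2A.Z, which is not among the Hist symbols, was the most abundant called gene outside the lists at 2082 and 1997 CPM against 746 and 689 CPM.

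Of 22 measured cell cycle regulators, 8 were called higher (36.4%, against 4.49% over all genes), each of them under 20 CPM in other cells, and none lower. They were E2f1, E2f3, E2f8, Rbl1, Mybl2, Cdkn3, Pkmyt1, and Cdkn1a. Cdkn1a, the CDK inhibitor p21, was at 41.7 and 37.0 CPM against 13.0 and 10.6 CPM. It was also the 1 of 6 measured p53 targets to be called, a number too small to set against the share over all genes, and Bax, an apoptosis effector among them, had a log2 ratio of -0.42 (-0.48 to -0.36). E2f1, the transcription factor that opens S phase, was at 57.6 and 63.2 CPM in high S index mitotic cells and 6.52 and 10.3 CPM in low S index ones. Ccnd2, cyclin D2, which carries mitogen signals to CDK4 and CDK6, was lowest in the low S index cells, at 237 and 326 CPM, against 581 and 627 CPM in high S index mitotic cells and 699 and 761 CPM in other cells. Its log2 ratio over all mitotic cells was -0.73 (-0.77 to -0.68) and was not called. Myc, the growth-promoting transcription factor, was at 48.4 and 37.2 CPM against 65.3 and 62.6 CPM.

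**Figure D3:**
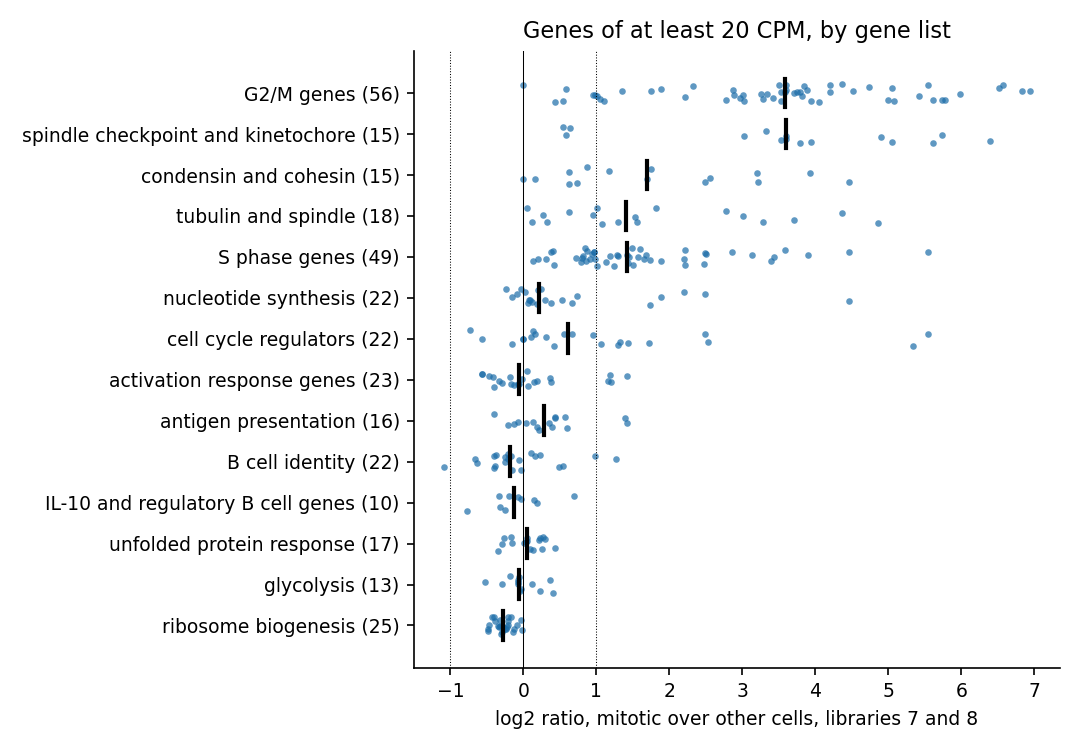
Log2 ratio of CPM in mitotic over other cells of libraries 7 and 8 for each gene of at least 20 CPM, by gene list, with the number of plotted genes in parentheses and a black bar at their median. Dotted lines mark a 2-fold ratio; the 5 lists on top have medians of 1.41 to 3.60, and all 25 ribosome biogenesis genes lie below 0 in this ratio over both libraries.

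Il10, on chromosome 1 (chr1:131019845-131024974, plus strand, GRCm38), made up a smaller share of the transcripts of mitotic cells than of other cells. The log2 ratio was -0.33 (-0.39 to -0.26), at -0.41 in library 7 and -0.23 in library 8, within 2-fold and not called. By the summed count of the rule genes, mitotic cells with 10 to 19, 20 to 39, and 40 or more UMIs were at 187, 222, and 200 CPM. In library 8, those with 20 to 39 UMIs were at 256 CPM (235 to 280), level with its other cells at 257 CPM. Among the groups split by S index, high S index mitotic cells had the lowest level. Il10 was at 170 CPM (155 to 185) in library 7 and 184 CPM (166 to 203) in library 8 in high S index mitotic cells. In low S index mitotic cells it was at 225 CPM (207 to 244) and 247 CPM (228 to 267). Other cells with a high S index were at 246 and 263 CPM, and those with a low S index at 265 and 255 CPM. The intervals of the high S index mitotic cells lay below those of all 3 other groups in each library. Without scaling for depth the order was the other way. The mean was 3.57 and 3.90 Il10 UMIs in a mitotic cell and 2.85 and 2.81 in an other cell. An Il10 UMI was found in 77.1% of mitotic and 70.5% of other cells as counted. After each cell was thinned to 5000 UMIs, which left out 1 mitotic and 389 other cells, the share was 53.1% (48.9% to 57.3%) in mitotic and 57.8% (56.8% to 58.9%) in other cells. The same share was 3.77% in cells taken by the same rule in libraries 5 and 6 and 3.95% in the other cells there, with median depths of 18152.5 and 8524.5 UMIs. These are separate libraries with little Il10, so their shares do not give the share that free RNA alone could cause in libraries 7 and 8, which was not measured.

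**Figure D4:**
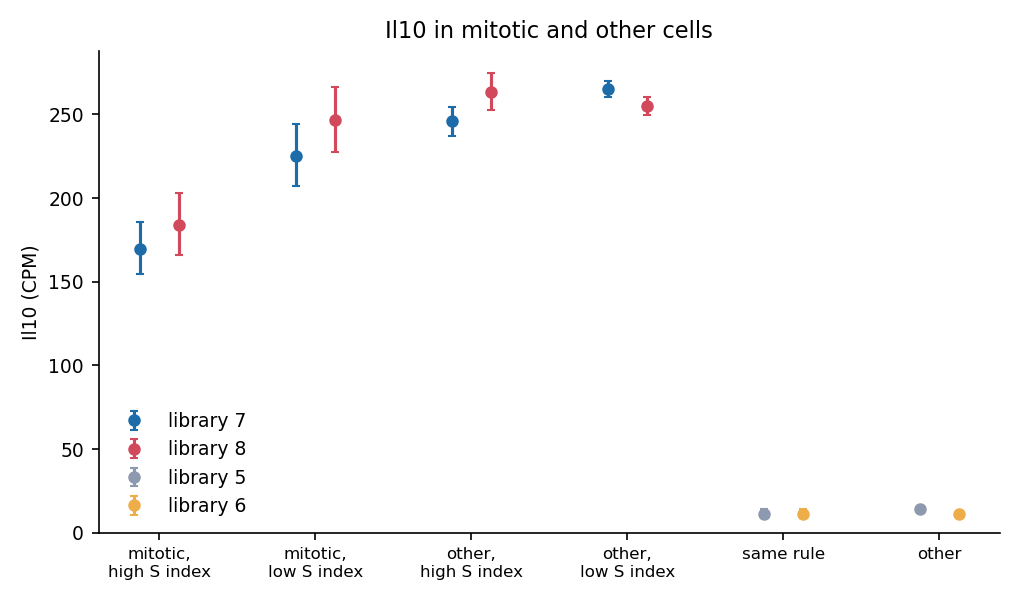
Il10 in CPM (vertical axis, from 0) by group and library, with exact Poisson 95% intervals. High S index mitotic cells of libraries 7 and 8 sit at 170 and 184 CPM, low S index ones at 225 and 247 CPM, other cells of these libraries between 246 and 265 CPM, and all cells of libraries 5 and 6 at or under 14.1 CPM.

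Other genes linked to regulatory B cells went in both directions. Of 10 measured genes of this list none was called, against 4.49% higher and 0.099% lower over all genes, a share that leaves a list of this size with few or no calls. The median log2 ratio over 25 genes was -0.11. Below 20 CPM, Prdm1, the plasma cell regulator Blimp-1, had 3 UMIs in mitotic and 143 in other cells (log2 ratio -2.27, -4.57 to -0.70). The rule limited Jchain in mitotic cells only, and 82 other cells held 5 or more Jchain UMIs. A lower level of a plasma cell gene in mitotic cells may thus be set in part by the choice. Tgfb1, encoding TGF-beta 1, was at 103 and 94.3 CPM against 87.0 and 86.6 CPM. Havcr1, encoding TIM1, was at 50.02 and 46.9 CPM against 47.0 and 39.7 CPM, and Il2ra, encoding CD25, at 99.1 and 106 CPM against 122 and 111 CPM. Lrrc32, which encodes the TGF-beta docking receptor GARP, was at 37.7 and 41.1 CPM against 49.0 and 49.2 CPM. Cd24a, a surface glycoprotein of immature and regulatory B cells, had the lowest ratio of the 10 genes, at 653 and 665 CPM against 1124 and 1115 CPM (log2 ratio -0.77, -0.80 to -0.73). Fgl2, a secreted suppressive factor, had the highest of the 10, at 70.6 and 77.7 CPM against 45.7 and 45.3 CPM (0.70, 0.58 to 0.81).

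A few genes of the activation response were higher in mitotic cells, and most were not. Of 23 measured, 4 were called higher (17.4%, against 4.49% over all genes), 2 of them under 20 CPM in other cells, and none lower. The median over 40 genes was 0.055. Egr1, an immediate early transcription factor, was at 198 and 183 CPM against 85.5 and 85.5 CPM. Nr4a1, an orphan receptor induced by antigen receptor signals, was at 26.5 and 18.2 CPM against 8.71 and 8.21 CPM. The MAP kinase phosphatases Dusp4 (91.8 and 93.7 CPM against 41.1 and 39.8 CPM) and Dusp5 (28.0 and 23.8 CPM against 11.2 and 11.4 CPM) were the other 2. Nfkbia, the NF-kB inhibitor and the most abundant of the list, had a log2 ratio of -0.33 (-0.36 to -0.30), and Cd83, an activation marker, -0.42 (-0.47 to -0.37). Of 5 measured cytokine and chemokine genes none was called, which at 4.49% higher and 0.099% lower over all genes says nothing about the list. The neighboring chemokine genes Ccl4 and Ccl3 went apart: Ccl4 was at 168 and 167 CPM against 337 and 320 CPM (log2 ratio -0.98, -1.05 to -0.91), and Ccl3 at 110 and 111 CPM against 65.7 and 61.7 CPM (0.79, 0.69 to 0.88).

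B cell identity genes went in both directions. Of 22 measured, 1 was called higher (4.55%, against 4.49% over all genes) and 1 lower (against 0.099% over all genes), and the median over 28 genes was -0.19. Cd79a, a signaling chain of the B cell receptor, was at 1027 and 981 CPM against 1060 and 1039 CPM, and Ebf1, a B lineage transcription factor, at 503 and 522 CPM against 643 and 713 CPM. Spib, an Ets family factor, had a log2 ratio of -0.66 (-0.85 to -0.48), Cd38, an ectoenzyme, -0.64 (-0.73 to -0.54), and Fcmr, the IgM Fc receptor, 0.54 (0.43 to 0.66), none of them called. Pou2af1, the coactivator OBF-1, was the gene called higher, at 52.0 and 40.9 CPM against 18.9 and 20.1 CPM. Cd40, the receptor for T cell help, was the gene called lower, at 18.0 and 16.2 CPM against 38.0 and 34.8 CPM. Of 16 measured antigen presentation genes, 2 were called higher and none lower, and both were under 20 CPM in other cells, so that the limit nearly fixed their direction. H2-DMb1, a chain of the peptide editor H2-DM, was at 20.8 and 20.6 CPM against 7.85 and 7.53 CPM, and H2-Q7, a nonclassical class I gene with close paralogs, at 21.7 and 30.3 CPM against 10.0 and 9.40 CPM. The class II genes H2-Aa and H2-Ab1 had log2 ratios of 0.44 (0.40 to 0.48) and 0.60 (0.55 to 0.64), whereas Cd74, the invariant chain, had -0.40 (-0.42 to -0.39). None of 7 measured immunoglobulin constant genes, 10 plasma cell genes, or 7 class switch and germinal center genes was called. At 4.49% higher and 0.099% lower over all genes, lists of this size hold few or no calls. Igkc, the kappa light chain, had a log2 ratio of -0.57 in library 7 and 0.04 in library 8. The other cells included 82 with 5 or more Jchain UMIs, which the rule kept out of the mitotic cells. Against other cells with a high S index, the ratio of Igkc was 0.23 over both libraries. Its levels were 2842 and 2653 CPM in mitotic cells against 2660 and 1864 CPM in these cells.

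Of the growth and metabolic lists, nucleotide synthesis held called genes and the other lists held none, where 4.49% higher over all genes gives few or none in lists of their size. Of 25 ribosome biogenesis genes, all measured, none was called, and the ratios over both libraries together were below 0 for all 25, with a median log2 ratio of -0.28. The intervals of Gar1 (-0.11 to 0.05) and Odc1 (-0.07 to 0.04) included 0, and Gar1 was at 0.08 in library 7. Ncl, nucleolin, was at 2325 and 2236 CPM against 2775 and 2855 CPM, and Ddx21, a nucleolar helicase, at 314 and 309 CPM against 427 and 440 CPM. None of 13 glycolysis genes (median over 17 genes -0.06) or 17 unfolded protein response genes (median over 20 genes 0.05) was called. Of 22 nucleotide synthesis genes, 5 were called higher (22.7%), 2 of them under 20 CPM in other cells. Among the 5 were Rrm1, Rrm2, Tk1, and Tyms, which are also S phase genes. The purine and pyrimidine pathway genes Impdh2 (-0.23, -0.30 to -0.17) and Cad (-0.09, -0.24 to 0.05) were not called.

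Besides Jchain and Cd40, 3 genes were called lower. Wfdc17, a small secreted protein gene, was at 299 and 485 CPM in mitotic cells against 1074 and 1209 CPM (log2 ratio -1.56, -1.60 to -1.51). Kdm5b, a histone demethylase, was at 16.9 and 20.8 CPM against 53.2 and 49.96 CPM. Lrrc25 was at 20.04 and 20.8 CPM against 52.7 and 47.9 CPM. Against other cells with a high S index, the log2 ratios over both libraries were -0.81 for Wfdc17 and -0.77 for Kdm5b, under 2-fold. Those of Lrrc25 (-1.12) and Cd40 (-1.09) were past 2-fold.

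The same rule took 273 of 4196 cells of library 5 and 343 of 4714 cells of library 6 (6.91% of both, 6.40% to 7.46%). Their chosen cells had a high S index in 40.3% and 43.1% of cases, against 2.42% and 2.40% of their other cells. Of 4981 genes tested there, 399 were called higher (8.01%) and 11 lower (0.221%). The 2 sets of higher genes shared 199, which is 87.7% of the 227 and 49.9% of the 399. The same 8 rule genes chose the cells in both pairs of libraries and are among the 199, so the rule sets part of this overlap. Jchain, limited by the rule, and Kdm5b were called lower in both. The median log2 ratio of the G2/M genes was 4.24 there.

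Of the 28 genes called higher in libraries 7 and 8 and not in libraries 5 and 6, 14 had a log2 ratio under 0.5 in libraries 5 and 6 together. None of the 14 was in a cell cycle list. In libraries 5 and 6, 8 of them were under 20 CPM in every group and could not be called there, Lgals3 and Serpinb9 among them. This limit was set after the values were seen, and the difference itself was not tested. Rgs2, a brake on G protein signaling, had the highest ratio of them. It was at 81.5 and 69.4 CPM in mitotic cells against 18.7 and 17.6 CPM in other cells, and in libraries 5 and 6 at 45.3 and 46.7 CPM against 43.4 and 44.0 CPM. Lgals3, galectin-3, was at 24.8 and 21.4 CPM against 7.96 and 10.1 CPM, and in libraries 5 and 6 at 2.74 and 1.96 CPM against 4.15 and 3.53 CPM. Serpinb9, an inhibitor of granzyme B, was at 59.0 and 77.9 CPM against 28.4 and 29.5 CPM, and in libraries 5 and 6 at 3.08 and 4.75 CPM against 4.51 and 4.27 CPM. Pou2af1, described above among B cell identity genes, was in libraries 5 and 6 at 125 and 134 CPM against 103 and 106 CPM. Their levels in libraries 5 and 6 thus differed widely, from far below to above those in libraries 7 and 8. Others of the 14 were Hpgds, Nr4a1, Rgs13, Serpinb6b, Ahcyl2, Dusp5, Egr1, Gch1, and Fam111a.

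**Figure D5:**
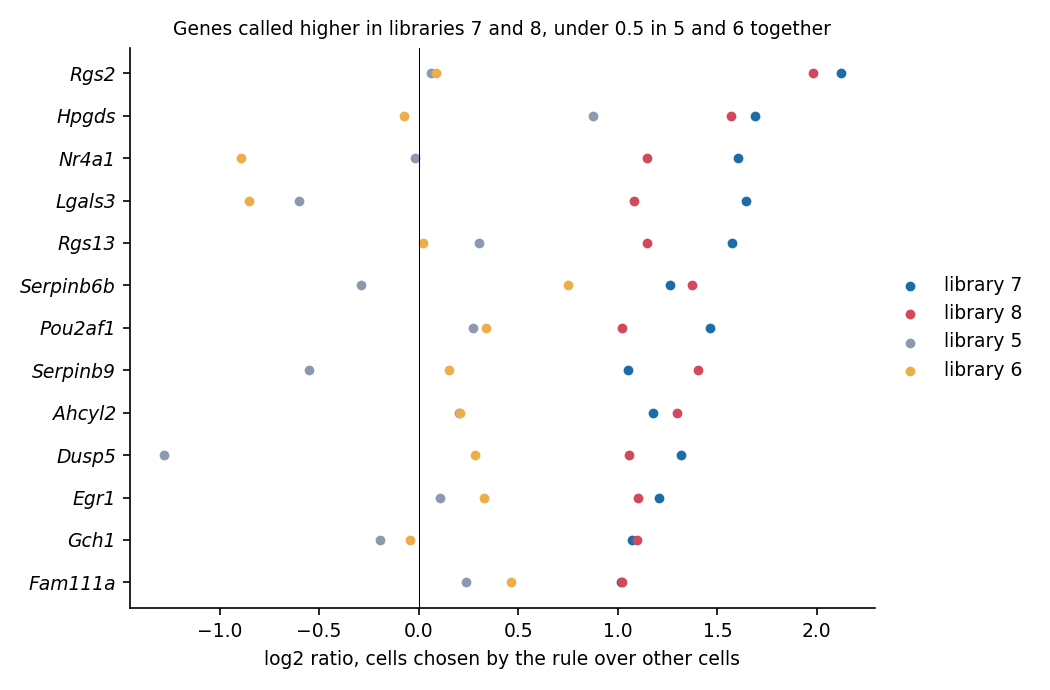
Log2 ratio (horizontal axis) of cells chosen by the rule over other cells in each of the 4 libraries, for 13 of the 14 genes called higher in libraries 7 and 8 with a ratio under 0.5 in libraries 5 and 6 together. In libraries 7 and 8 every point lies at 1 or above, and in libraries 5 and 6 both points of Lgals3, Nr4a1, and Gch1 lie below 0.

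Markers of other cell types were counted in full. The markers named below as without a UMI had none in other cells either, so these zeros do not set mitotic cells apart. Of 10 T cell markers, 6 had no UMI in mitotic cells, Cd3e, Cd3g, Cd4, and Cd8a among them, and the list summed to 12.5 and 17.5 CPM against 9.18 and 8.50 CPM in other cells, with Il7r the most abundant (8.85 CPM). The mitotic cells held 89 UMIs of Il7r, 49 of Lck, 9 of Trac, and 2 of Cd3d, and whether T cell RNA had a part in the results was not tested. Of 10 myeloid markers, 7 had no UMI, Lyz2 and Csf1r among them, and the list summed to 9.38 and 8.44 CPM against 8.51 and 9.28 CPM, led by Mpeg1 (5.76 CPM), with 29 UMIs of Cd68 and 3 of Itgam in mitotic cells. Of 10 NK and dendritic cell markers, 6 had no UMI, Ncr1 and Siglech among them, and the sum of 75.8 and 69.4 CPM was nearly all Bst2 (72.2 CPM), an interferon-induced gene, beside 4 UMIs of Xcr1, 2 of Flt3, and 1 of Zbtb46. Of 8 erythroid markers, 6 had no UMI, both alpha-globin genes Hba-a1 and Hba-a2 among them, but Hbb-bt, a beta-globin gene, was at 174 and 276 CPM against 222 and 286 CPM. The erythroid list summed to 4.69 and 3.75 CPM in other cells of libraries 5 and 6. Its part in the results was not tested.

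No doublet calls were used, since the caller Scrublet marked too few cells to work, and doublets were left in. As a check, cells with at least 20 light chain UMIs were asked for both chains, that is a lambda share of 10% to 90%. This held for 30.9% (26.6% to 35.5%) of 440 mitotic cells and for 40.1% (38.4% to 41.8%) of 3189 other cells. Over libraries 5 and 6 together, it held for 93.8% of cells taken by the same rule and 93.1% of the other cells. With shares this high in all groups, the measure was not used to find doublets, and their part in the results was not tested. Of the mitotic cells, 33 had over 30000 UMIs, as had 95 other cells. Among barcodes, 29 occurred in more than 1 library and 3 in both library 7 and library 8, and 1 mitotic cell carried such a barcode.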

How the data were processed

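The authors prepared 10x Genomics single-cell libraries, made reads with bcl2fastq, and aligned and counted them, and combined and normalized the libraries with Cell Ranger 3.1.0 on mm10 (GRCm38). How Cell Ranger scaled depth in that step is not given in the sources used here. The deposited matrix holds whole-number UMI counts, which that step may have reduced by sampling, for 31053 genes in 35989 columns. The barcode list has 19920 entries, matched in order to the last columns, and 16069 columns were not used here. With this match, Il10 was at 8.62 CPM in the 400 cells before the start of library 7 and 249 CPM in the 400 after it. Cells with at least 1000 genes and under 10% mitochondrial UMIs were kept (4196, 4714, 5621, and 4003 in libraries 5 to 8, with 44842982, 51636750, 63638158, and 45672518 UMIs).

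UMIs were summed over cells of a group within a library and given in CPM, with counting intervals, in Python 3.11.15 with numpy 2.4.6 and scipy 1.17.1. A group without a count was set to 3 counts in a ratio. The functions were tested on simulated data. A library number names no sample, so no test between groups was made. The members and lists were chosen with earlier results of these data known. List medians cover genes with at least 10 UMIs. Genes were named by a rule: all rule genes, Il10, in each list the 4 most abundant and the 3 highest and 3 lowest ratios, and 10 each way among called genes outside the lists, 185 genes in all; 54 more were named or tabulated after their values were seen. Of 515 list symbols, 513 matched. Gene positions came from GENCODE vM21 and promoters from RefSeq, both on GRCm38. Repeated symbols (35) were kept apart by identifier. Alternatives are in the closing section. Some items are not reported here.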

Additional observations from a re-analysis of the deposited data

Results flagged for a closer look

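Gch1, the first enzyme of tetrahydrobiopterin synthesis, Lgals3, and Nr4a1 were higher in mitotic cells of libraries 7 and 8, at log2 ratios of 1.08, 1.39, and 1.41, and below 0 in cells chosen by the same rule in each of libraries 5 and 6, at -0.10, -0.73, and -0.44 over both. Gch1 in libraries 5 and 6 (-0.20 and -0.04) and Nr4a1 in library 5 (-0.02) lay near 0. The difference was not tested, and the counts of Lgals3 and Nr4a1 in libraries 5 and 6 were low (at most 4.15 CPM).

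For genes that set the pairs of libraries apart, the direction of the median ratio differed. Among genes at least 4-fold higher in other cells of library 7 than of library 5, the median log2 ratio of mitotic over other cells, measured in library 8, was -0.20, and among those at least 4-fold lower it was 0.22. In library 6, cells chosen by the same rule had 0.40 and -0.30 for these genes. With genes chosen from libraries 8 and 6 and measured in library 7, the medians were -0.19 and 0.15, and in library 5 they were 0.40 and -0.23. These differences were not tested either.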

How the results depend on the processing

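Samples could not be paired by replicate number, because the barcodes carry no sample name. Mitotic and other cells share a library, and their ratio within each library is the paired value. Of 105 values recomputed for the main results, 83 moved by less than the counting interval or the difference between libraries (1.5-fold for counts of genes). For a ratio with 1 library left out, that difference is itself part of the tolerance, so staying within it says little. The values that moved further follow. The share of mitotic cells was 8.30% with a sum of at least 5 and 4.23% with at least 20. Genes called higher numbered 372 at 5 CPM and 115 at 50 CPM, against 227. Genes called lower numbered 15 at 5 CPM, 10 with a sum of at least 20, and 12 with the rule as a share of 1000 CPM, against 5. The G2/M median of 3.69 was 3.54 with a sum of at least 5, 4.02 against low S index cells, and 3.32 against cells weighted to the UMIs of mitotic cells. The S phase median of 1.42 was 1.09 with a sum of at least 20, 1.19 with the rule as a share, 2.02 against low S index cells, 1.05 against weighted cells, and 1.61 as a mean of per-cell shares. The activation median of 0.055 was 0.14 against weighted cells. The share of mitotic cells with an Il10 UMI, 53.1% at 5000 UMIs, was 64.9% at 8000 and 77.1% without thinning.

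With 1 library left out, genes called lower ranged from 8 to 9, those called higher from 243 to 254, the S phase median from 1.30 to 1.40, the activation median from 0.068 to 0.13, the G2/M median from 3.63 to 3.74, and the Il10 log2 ratio from -0.41 to -0.23. The Il10 ratio stayed below 0 under all 15 settings, and no called gene among the 232 named or tabulated ones recomputed changed sign. A call already required the same direction in both libraries, so leaving out 1 library could not change the sign of a called gene. The direction of the rule genes was fixed by the choice of cells. Il10 was already below 0 in each library. Of these 232 genes, 97 stayed within their counting interval or the difference between libraries under every setting, and the others moved beyond it under at least 1. The cause of each move was not tested. Depth limits genes under 20 CPM, and 2 libraries whose barcodes name no condition give no error between cultures.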

Other observations

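The genes that set libraries 7 and 8 apart from libraries 5 and 6 were followed into the mitotic cells, a comparison chosen after the data had been seen. The genes were taken from other cells of 1 library of each pair and measured in the remaining libraries. Of 205 genes at least 4-fold higher in library 7 than in library 5, 135 (65.9%) had a lower level in mitotic than in other cells of library 8. Of 236 genes at least 4-fold lower, 153 (64.8%) had a higher level in mitotic cells. Taken from libraries 8 and 6 and measured in library 7, 119 of 182 (65.4%) were lower and 162 of 253 (64.0%) were higher. Over all genes of at least 20 CPM, 54.9% were lower in library 8 and 54.0% in library 7. Other cells with a high S index had medians between -0.08 and 0.03 for the same sets, near the all-gene medians of -0.02 and -0.01. The medians of the 4 sets in mitotic cells were -0.20, 0.22, -0.19, and 0.15, each toward the level of libraries 5 and 6, and were not tested.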
